A study of Mus musculus with 12 samples.

Results

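Cytochrome P450 genes encode heme enzymes that add oxygen to small molecules. They are described here as every gene of the deposited gene table whose identifier maps, in GENCODE release M21, to a protein-coding gene with a symbol made of Cyp, a number, a letter and a number. The rule leaves out Cyp11a1, Cyp17a1 and Cyp51. It finds 88 genes among the 35666 of the table, from 96 genes of that kind in the annotation. The other 8 (Cyp2c38, Cyp2c50, Cyp2d10, Cyp2d11, Cyp2d12, Cyp2d34, Cyp3a41a and Cyp3a41b) are not analysed here. The 88 genes fall into 15 families and 36 subfamilies, and 67 of them lie in 10 gene clusters, taken as runs of neighbours on 1 chromosome with no gap over 500 kb.

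The RNA came from gonocytes, the male germ cells before spermatogenesis begins, sorted from mice that carried the germ cell reporter Mvh-Venus in both genotypes. One group was heterozygous for Morc1 (Morc1 (+/-), here het) and the other lacked both working copies (Morc1 (-/-), here KO), and MORC1 is a germ cell ATPase needed to keep transposable elements silent. The 6 libraries used here were made from testes at postnatal day 0, 3 per genotype. Samples of postnatal day 3 are also listed in the series and are not analysed here. The labels do not say whether the 3 samples of a genotype came from separate animals, so the p-values measure only the spread between these samples, which may be technical.

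P450 enzymes of families 1 to 4 mostly act on foreign compounds, fatty acids and eicosanoids, and many of them are known as enzymes of liver, kidney and gut. Most members of the other families have fixed tasks in the making or breakdown of steroids, bile acids, oxysterols, retinoic acid and vitamin D. Each enzyme of the endoplasmic reticulum takes its electrons from P450 oxidoreductase, and each mitochondrial one from ferredoxin. In the testis the best known P450 work is steroid synthesis in Leydig cells, and retinoic acid breakdown by the Cyp26 enzymes, which keeps fetal male germ cells out of meiosis.

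Each library held 28363683 to 32816861 reads over genes. The values are read counts divided by 1 size factor per library, called normalized counts. Morc1 itself had 4126 to 7485 normalized counts in het and 1343 to 1794 in KO (limma log2 fold change -2.03, adjusted p 0.0109), so its transcript was reduced and not absent. Germ cell markers were high in every library, with a sum over 11 genes of 131287 to 205029, and limma, edgeR and DESeq2 called none of them (unadjusted p under 0.05: 0 with limma and edgeR, 1 higher with DESeq2). Het replicate 3 stood apart. Its Leydig cell markers summed to 25386 normalized counts over 7 genes, against 871 and 1157 in the other het libraries and 664 to 1214 in KO. In bulk RNA, fewer cells of a type and less RNA per cell cannot be told apart.

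Of the 88 P450 genes, 73 had a mean of at least 10 normalized counts and were tested. The other 15 had means of 1.68 to 9.22 and no single value above 21.6. That mean was over all 6 libraries, so a gene near 0 in het could enter the test through KO, and the reverse. Cyp4a12b and Cyp2c29, with het means of 3.51 and 2.86, entered through KO, as did others. Cyp21a1, with a KO mean of 2.70, entered through het. The shares below therefore only describe the tested genes. With limma on log2(normalized count + 1), 3 P450 genes rose in KO at an adjusted p under 0.05: Cyp20a1, Cyp4a12b and Cyp2c29. That is 4.11% of those tested, and 0.431% of all 26005 genes tested rose. None fell, where 0.0423% of all genes did. At an unadjusted p under 0.05, 15 of the 73 were higher in KO and 4 lower, or 20.5% and 5.48%, against 4.42% and 2.44% of all genes. Every KO library lay above every het library for 13 of them (7.17% of all genes) and below for 5 (5.57% of all genes). The median log2 fold change over the 73 was 0.13, against -0.02 over all genes. The values ran from -3.85 to 5.97, with 44 positive and 29 negative. The positive share was 60.3%, against 48.4% of all genes. Counting methods gave other sets of calls. On the reads recovered from the table, edgeR called 3 P450 genes higher (Cyp20a1, Cyp4a12b and Cyp4a32) and 0 lower. Of all genes tested, edgeR called 0.465% higher and 0.0308% lower. DESeq2 called 8 P450 genes higher and 1 lower, and of all genes tested 1.54% higher and 0.25% lower. Cyp2c29 was not among the calls of either tool. With limma but without KO replicate 3, no P450 gene was called.

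**Figure D1:**
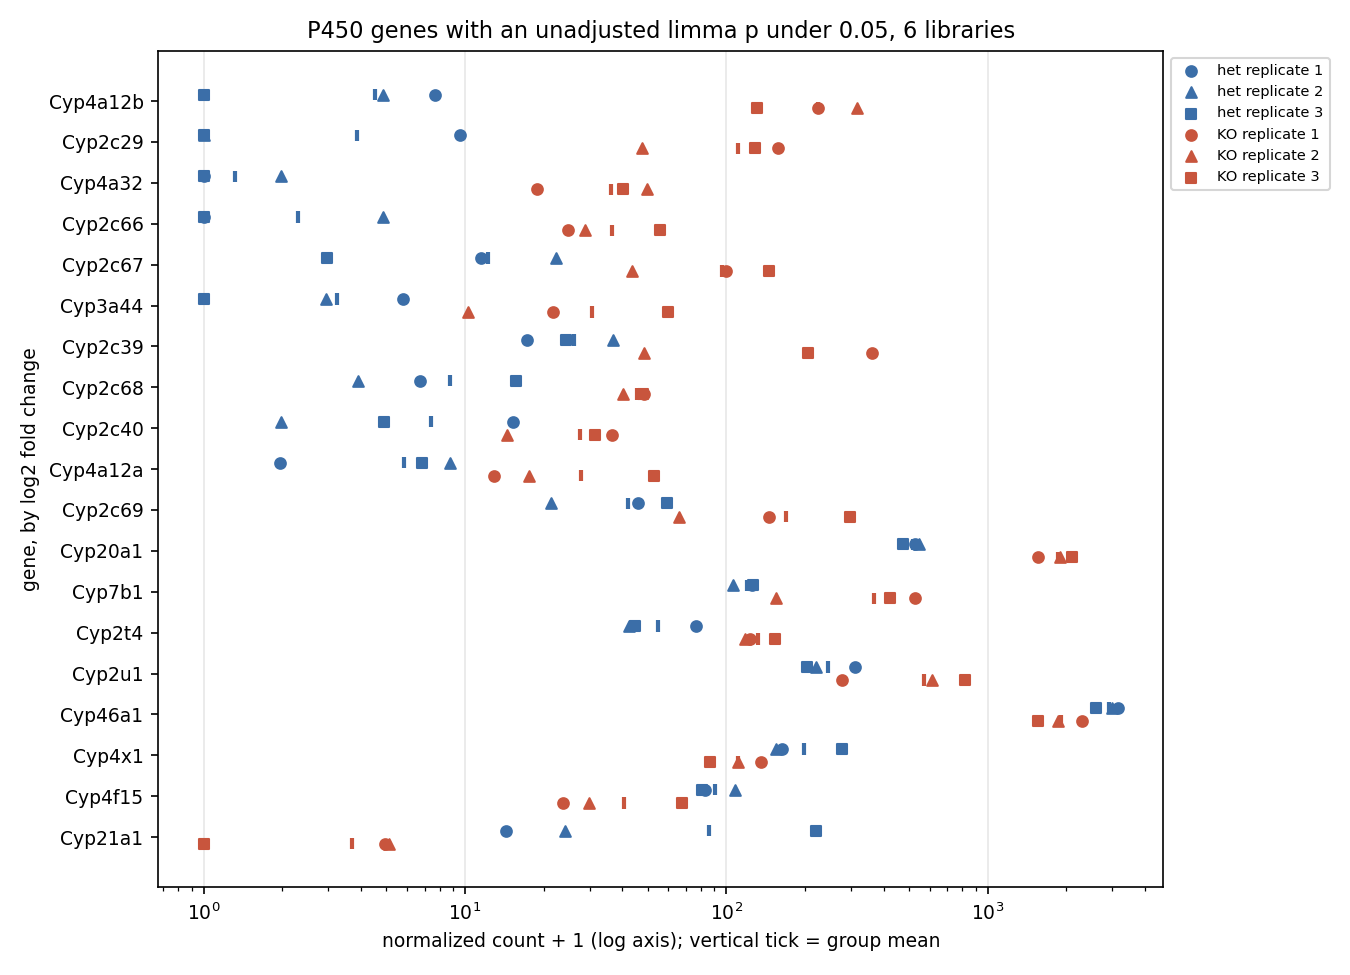
Normalized count + 1 on a log axis in each of the 6 libraries for the 19 P450 genes with an unadjusted limma p under 0.05, ordered by log2 fold change; each vertical tick is a group mean (n = 3). The 15 genes above Cyp46a1 were higher in KO, with Cyp4a12b, Cyp2c29 and Cyp4a32 near 0 in het, and Cyp46a1, Cyp4x1, Cyp4f15 and Cyp21a1 were lower.

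Cyp20a1 (ENSMUSG00000049439) encodes a P450 with no established substrate, is the only member of its family and lies alone on the plus strand of chromosome 1 from 60343323 to 60388060 (GRCm38). In replicates 1 to 3, the order kept for every gene below, it had 528, 546 and 475 normalized counts in het libraries and 1564, 1889 and 2108 in KO libraries. The groups were far apart: 516 ± 36.9 in het against 1854 ± 273 in KO (means with SD, n = 3), a ratio of 3.59. By limma this was 1.83 on the log2 scale (SE 0.22, adjusted p 0.00942). Without any 1 of the other 5 libraries the gene stayed called, and without KO replicate 3 its fold change was 1.74 with an adjusted p of 0.0655. Per kb of exon its level was 226 in het and 811 in KO, where it was the highest of all 88 P450 genes. Its exons share 4.81% of their 50-base words with other genes, so its reads can largely be told from those of other genes.

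The 250 bases before its RefSeq start (GRCm38.p6, chr1:60343050-60343299, plus strand) are shown to set them beside the windows of Cyp4a32 and Cyp2c29 below. Capitals mark CG, of which the window holds 15. As many or more were found in 27.3% of all 32851 RefSeq promoter windows of this length.
Cyp20a1: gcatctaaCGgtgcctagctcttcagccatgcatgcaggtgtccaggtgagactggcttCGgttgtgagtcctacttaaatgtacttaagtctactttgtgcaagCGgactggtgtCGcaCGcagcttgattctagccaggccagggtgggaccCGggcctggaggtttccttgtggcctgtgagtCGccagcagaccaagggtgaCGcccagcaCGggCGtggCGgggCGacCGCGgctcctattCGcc

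The genes around Cyp20a1 did not pass the test. Its 4 tested neighbours within 100 kb (Nbeal1, 6030460B20Rik, Abi2 and Raph1) had log2 fold changes of 0.15 to 0.91 and adjusted p-values of at least 0.799. None had an unadjusted p under 0.05 with limma, edgeR or DESeq2. Within Cyp20a1, 7 copies of transposable elements (TEs) were tested, all in introns, and limma called none of them (lowest adjusted p 0.0625, unadjusted p under 0.05: 2). Of the 7 copies, 4 had every KO library above every het library, against 22.8% of all TE copies tested. These 4 lay 32.2 to 41.4 kb from the gene start. The nearest called copy lay outside the gene, 17630 bp upstream in Nbeal1. That copy is 5570 bp long and had 13.7, 19.1 and 23.0 normalized counts in het and 75.4, 110 and 39.3 in KO (log2 fold change 1.86, SE 0.50, adjusted p 0.0256).

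The Cyp4a, Cyp4b and Cyp4x cluster on chromosome 4 holds 10 listed genes, 7 of them tested. Cyp4a enzymes hydroxylate the far end of fatty acids, and in liver and kidney they respond to the receptor PPARA. With limma 1 gene of this cluster rose, Cyp4a12b, and 2 more, Cyp4a32 and Cyp4a12a, were higher at an unadjusted p under 0.05, while Cyp4x1 was lower. The summed level of the 10 genes was 287, 313 and 353 normalized counts in het and 545, 594 and 581 in KO. The 12 other genes listed within 100 kb of the cluster gave no call with limma or edgeR among the 7 tested (unadjusted p under 0.05: 2 with either tool). DESeq2 called 1 of them, the pseudogene Cyp4a30-ps.

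Cyp4a12b (ENSMUSG00000078597, plus strand, chromosome 4 from 115411624 to 115439034) belongs to the pair of Cyp4a12 enzymes that make an omega-hydroxylated product of arachidonic acid and are known for higher levels in male than in female liver and kidney. It had 6.67, 3.86 and 0 normalized counts in het and 223, 315 and 130.3 in KO. The gene went from close to 0 to a moderate level in all 3 KO libraries (log2 fold change 5.97 by limma, SE 0.78, adjusted p 0.0109). On per-kb levels it moved from 1.47 in het to 93.0 in KO. Leaving out any 1 KO library raised the adjusted p to between 0.0705 and 0.113, with fold changes of 5.68 to 6.31.

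Its copy Cyp4a12a lies upstream on the same strand, from 115299046 to 115332815. It had 0.95, 7.73 and 5.85 normalized counts in het and 11.9, 16.5 and 51.9 in KO (log2 fold change 2.23, SE 0.93, adjusted p 0.684). The KO libraries were all higher, yet the level stayed well below that of Cyp4a12b, and the call of a difference was not reached. The coding sequences of the pair are 1524 bases long and differ at 23 bases, an identity of 98.5%, and 49.4% of the 50-base words of Cyp4a12b also occur in Cyp4a12a. How reads that fit both genes were counted is not given in the sources used here, so the split between them is uncertain. The stretch below, coding bases 630 to 689 in exon 6, was picked for its differences and is not typical of the coding sequence. No other window of 60 coding bases within 1 exon held more. The untranslated parts were not compared. It was read from the transcripts of GENCODE M21 (Cyp4a12a chr4:115326628-115326687 and Cyp4a12b chr4:115432881-115432940, plus strand), and capitals mark the 4 bases that differ.
Cyp4a12a: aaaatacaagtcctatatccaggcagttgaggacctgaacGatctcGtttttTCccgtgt
Cyp4a12b: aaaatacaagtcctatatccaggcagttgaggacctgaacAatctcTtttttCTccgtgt

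Cyp4a32, the last Cyp4a gene of the cluster, was listed with 0, 0.97 and 0 normalized counts in het and 17.8, 48.6 and 39.2 in KO. These are 1 read in het and 105 reads in KO, a rate ratio of 109 with a 95% counting interval of 19.1 to 4340, which covers counting error only. By limma the difference was 4.74 on the log2 scale (SE 0.99, adjusted p 0.0895). With edgeR its adjusted p was 0.0470 and with DESeq2 0.000672, so the call depended on the tool. It shares 43.8% of its 50-base words with other genes, most of them with Cyp4a10. Cyp4a10 itself had 30.5, 16.4 and 16.6 normalized counts in het and 36.6, 27.9 and 8.82 in KO (log2 fold change 0.05, adjusted p 0.993), a full overlap. The window before the RefSeq start of Cyp4a32 (GRCm38.p6, chr4:115600688-115600937, plus strand) is printed because this gene moved from a single het read. Capitals mark its 3 CG.
Cyp4a32: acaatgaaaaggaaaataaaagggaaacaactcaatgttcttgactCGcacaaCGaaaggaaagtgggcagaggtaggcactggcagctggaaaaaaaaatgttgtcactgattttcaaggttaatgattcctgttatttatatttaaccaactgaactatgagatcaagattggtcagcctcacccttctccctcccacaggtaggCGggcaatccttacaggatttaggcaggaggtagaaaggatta

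No other gene of the cluster was called. Cyp4x1, at the upstream end and studied mainly in brain, had 162, 154 and 277 normalized counts in het and 135, 110 and 85.2 in KO (log2 fold change -0.81, SE 0.35, adjusted p 0.704). An antisense transcript, Cyp4x1os, overlaps 450 bp of its exons, and the strand setting of the counting is not given in the sources used here. Cyp4b1, at the downstream end, had 83.0, 88.9 and 22.4 in het and 90.0, 27.9 and 227 in KO (log2 fold change 0.59, adjusted p 0.938). Cyp4a30b had a log2 fold change of 0.69 with an SE of 1.61, and its highest values were 30.2 in het replicate 3 and 23.8 in KO replicate 2. Cyp4a14, Cyp4a29 and Cyp4a31 were under the filter and not tested. Cyp4a31 had 1.91, 6.76 and 0.98 in het and 6.93, 9.30 and 21.6 in KO, with every KO library higher, and the groups of the other 2 overlapped.

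The Cyp2c cluster on chromosome 19 holds 12 listed genes, 10 of them tested. Cyp2c enzymes oxidise arachidonic acid and drugs, chiefly in liver and gut. With limma 1 gene of this cluster rose, Cyp2c29, and the 7 listed genes from Cyp2c66 to Cyp2c69 (positions 39113898 to 39886799, a run of 773 kb) were all higher at an unadjusted p under 0.05. In 6 of these 7 every KO library lay above every het library. Over all genes tested, 4.42% were higher at an unadjusted limma p under 0.05 and 7.17% had every KO library above. Cyp2c66, Cyp2c29, Cyp2c40 and Cyp2c68 had het means of 1.29, 2.86, 6.39 and 7.75, under the filter. They entered the test only through KO, while Cyp2c37, with a het mean of 7.05 and a KO mean of 0, was not tested. The annotated gene Cyp2c38, which lies within the run between Cyp2c29 and Cyp2c39, is not analysed here. The calls depended on the tool: edgeR called 0 genes of the cluster (unadjusted p under 0.05: 6 higher and 0 lower), and DESeq2 called Cyp2c39, Cyp2c66, Cyp2c67 and Cyp2c69 higher, without Cyp2c29. The 3 tested genes outside the run had log2 fold changes of -0.56 to -0.05, and the median of the cluster was 2.44. The run was marked out after its values were seen, so its limits and its counts are a description. Among the 5 other tested genes within 100 kb of the cluster, which include the pseudogene Cyp2c52-ps, limma, edgeR and DESeq2 called none (unadjusted p under 0.05: 0 with each).

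**Figure D2:**
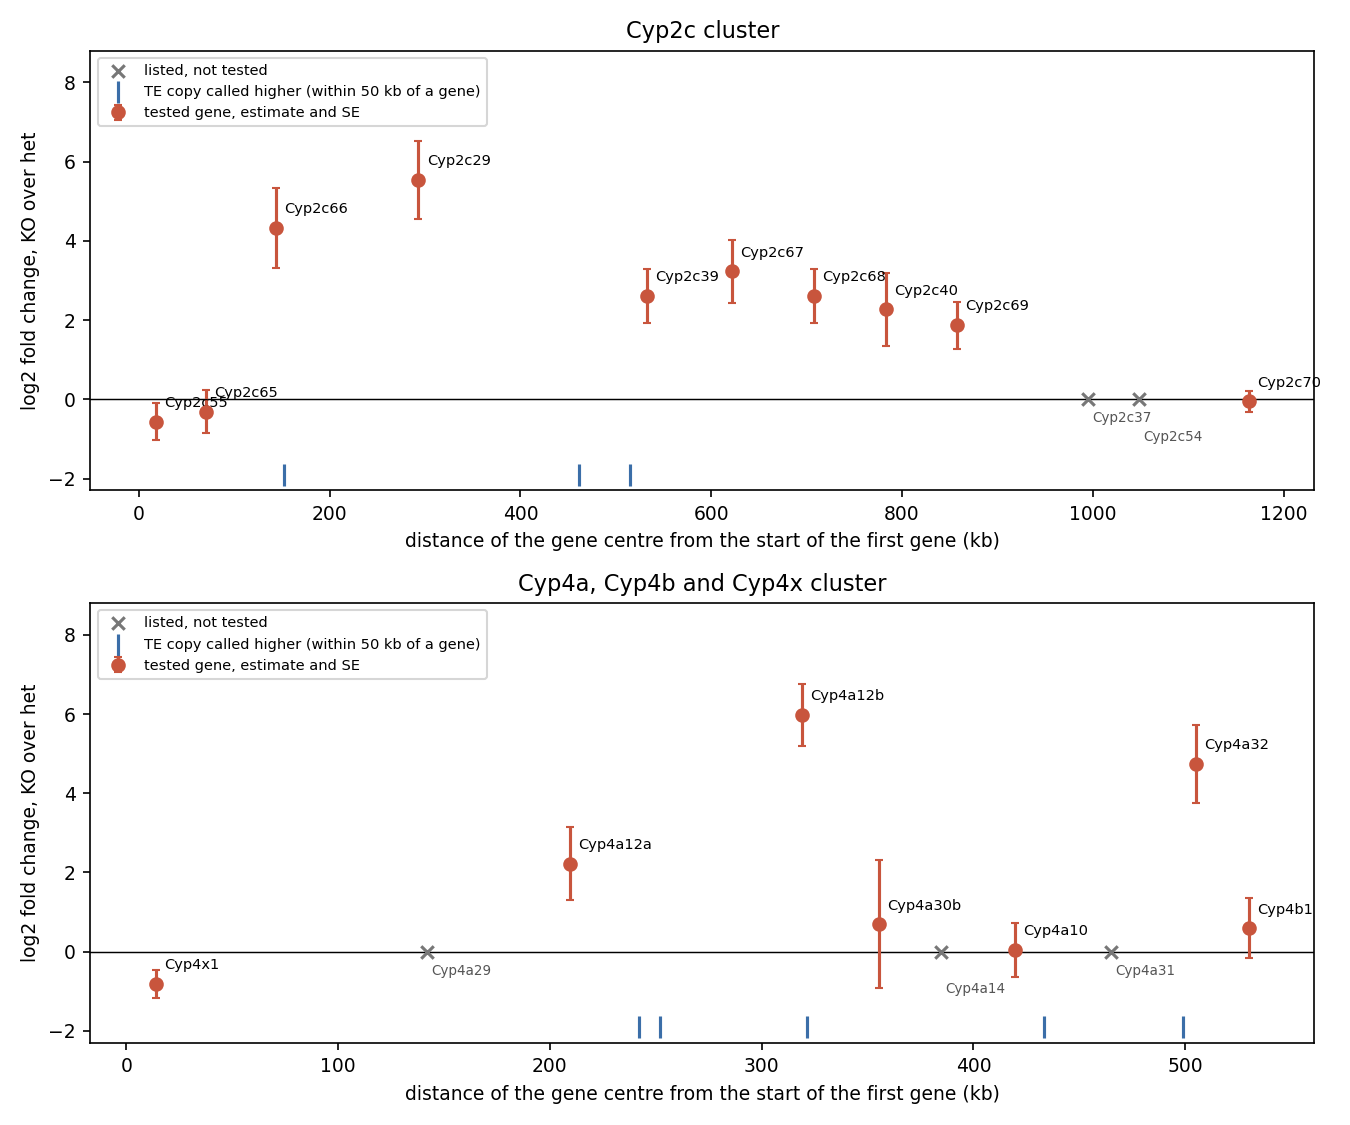
Limma log2 fold change (KO over het, with its SE) of each tested gene of the Cyp2c cluster (top) and the Cyp4a, Cyp4b and Cyp4x cluster (bottom) against the distance of the gene centre from the start of the first gene, in kb; crosses at 0 mark genes under the filter, which have no fold change, and blue ticks are TE copies called higher. Cyp2c66 to Cyp2c69 lie between 1.87 and 5.54, with Cyp2c55, Cyp2c65 and Cyp2c70 near 0 on either side, and between Cyp4a12b at 5.97 and Cyp4a32 at 4.74 lie the tested genes Cyp4a30b at 0.69, with a wide SE, and Cyp4a10 at 0.05.

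Cyp2c29 (ENSMUSG00000003053, plus strand, chromosome 19 from 39269405 to 39330713) encodes a liver epoxygenase of arachidonic acid. It had 8.58, 0 and 0 normalized counts in het and 156, 46.5 and 127 in KO. Only 1 het library had reads, and each KO library was well above it. By limma the difference was 5.54 on the log2 scale (SE 0.99, adjusted p 0.0493). The call lay just inside the threshold. It was lost with edgeR (adjusted p 0.0896) and DESeq2 (adjusted p 0.120) and on leaving out any library other than het replicate 1, with adjusted p-values of 0.0917 to 0.310 and fold changes of 4.99 to 6.06. The exons overlap those of the pseudogene Cyp2c53-ps over 142 bp on the same strand, and 4.25% of its 50-base words are shared with other genes.

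The window before its RefSeq start (GRCm38.p6, chr19:39286835-39287084, plus strand) is printed to set it beside that of Cyp20a1. This RefSeq start differs from the GENCODE start given above, and the window lies inside the GENCODE span of the gene. It holds no CG, and capitals mark the motif TATAAA.
Cyp2c29: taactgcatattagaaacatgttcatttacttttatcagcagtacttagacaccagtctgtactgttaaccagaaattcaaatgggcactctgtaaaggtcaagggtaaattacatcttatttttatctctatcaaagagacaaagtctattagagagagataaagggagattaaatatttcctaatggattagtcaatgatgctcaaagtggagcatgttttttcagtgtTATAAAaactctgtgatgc

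Cyp2c39, an enzyme known to act on retinoic acid, had 16.2, 35.7 and 23.4 normalized counts in het and 359, 47.5 and 204 in KO (log2 fold change 2.62 by limma, SE 0.68, adjusted p 0.222, DESeq2 adjusted p 0.000337). In KO replicate 2 the value was only slightly above the highest of het. Without that library the adjusted p was 0.0337. Cyp2c67 had 10.5, 21.2 and 1.95 normalized counts in het and 98.9, 42.4 and 144 in KO (log2 fold change 3.23, adjusted p 0.180, DESeq2 adjusted p 0.00409). Cyp2c66 had 0, 3.86 and 0 in het and 23.7, 27.9 and 54.9 in KO (log2 fold change 4.33, adjusted p 0.149, DESeq2 adjusted p 0.00548). Both pairs of groups were apart, at levels where a few reads weigh on the het mean.

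The 3 remaining genes of the run are close copies of each other. Cyp2c68 had 5.72, 2.90 and 14.6 normalized counts in het and 47.5, 39.3 and 47.0 in KO (log2 fold change 2.61, adjusted p 0.227). Cyp2c69 had 44.8, 20.3 and 58.5 in het and 144, 65.1 and 297 in KO (log2 fold change 1.87, adjusted p 0.407, DESeq2 adjusted p 0.0384). Cyp2c40 had 14.3, 0.97 and 3.90 in het and 35.6, 13.4 and 30.4 in KO (log2 fold change 2.27, adjusted p 0.662), with KO replicate 2 below het replicate 1. Of the 7 genes, 6 had their lowest KO value in replicate 2, as had Cyp2c55 and Cyp2c70 outside the run. Sequence is shared among them: 60.3% of the 50-base words of Cyp2c40, 54.3% of those of Cyp2c69, 52.8% of those of Cyp2c67 and 43.3% of those of Cyp2c68 occur in other genes. The share was 19.5% for Cyp2c66 and 213 of 1768 words for Cyp2c39, so the values of the first 4 are the less certain.

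The tested genes on either side of the run were not called by limma, edgeR or DESeq2. Cyp2c55, an epoxygenase known from colon, had 770, 957 and 593 normalized counts in het and 469.0, 256 and 1127 in KO (log2 fold change -0.56, SE 0.46, adjusted p 0.893), which spans the het range on both sides. Cyp2c70, the enzyme that makes the muricholic bile acids of mice, had 462, 398 and 345 in het and 416, 306 and 449 in KO (log2 fold change -0.05, SE 0.27, adjusted p 0.988). Cyp2c65 had 22.9, 44.4 and 40.0 in het and 30.7, 40.3 and 16.7 in KO. Cyp2c37 and Cyp2c54 were under the filter. Cyp2c37 had 3.86 to 11.4 normalized counts in het and was listed at 0 in KO, and Cyp2c54 was listed at 0 in het and had up to 9.80 in KO.

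Promoter windows of 250 bases were found in RefSeq for 68 of the 88 P450 genes, 77 windows in all. For 66 of the 77, bases after the RefSeq start were found near the start of a GENCODE transcript of the gene. The median P450 window held 2 CG, against 6 over all 32851 windows. Within the Cyp2c run, Cyp2c66, Cyp2c67 and Cyp2c68 had 1 CG each and Cyp2c69 had 2, so the Cyp20a1 window with 15 was unlike these. A high count was not particular to Cyp20a1: Cyp26a1, which was not called, had 20, and the P450 maximum was 23. In all, 4 motifs were searched on both strands. TATAAA, the core of the TATA box, was found in 32.5% of the P450 windows and 12.4% of all windows. CCAAT was found in 40.3% and 33.8%, GGGCGG, which Sp1 binds, in 22.1% and 32.7%, and CACGTG, an E-box, in 2.60% and 6.02%. The windows of Cyp2c68 and Cyp2c69 aligned with 91.3% identity. These matches describe letters in a window and are not sites shown to be bound.

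Outside these clusters no gene of families 2 and 3 was called by limma, edgeR or DESeq2, and 3 were higher at an unadjusted p under 0.05 with limma. Cyp2t4 had 75.3, 41.5 and 43.9 normalized counts in het and 123, 117 and 153 in KO, with no overlap (log2 fold change 1.31, SE 0.38, adjusted p 0.312). It was the only one of the 13 genes of the Cyp2a, Cyp2b, Cyp2f, Cyp2g, Cyp2s and Cyp2t cluster on chromosome 7 with an unadjusted p under 0.05. Cyp2s1 of the same cluster had 655, 687 and 612 in het and 731, 686 and 886 in KO (log2 fold change 0.23, adjusted p 0.911). Cyp2u1, a hydroxylase of long-chain fatty acids, had 310, 220 and 203 in het and 275, 613 and 816 in KO (log2 fold change 1.10, SE 0.40, adjusted p 0.547). KO replicate 1 lay within the het range, and an antisense transcript, 4930534D22Rik, overlaps 548 bp of its exons. Cyp3a44, of the drug-metabolising Cyp3a subfamily, had 4.77, 1.93 and 0 in het and 20.8, 9.30 and 58.8 in KO (log2 fold change 3.21, SE 1.07, adjusted p 0.467). The other tested Cyp3a genes had log2 fold changes of -0.33 to 0.72, and the 5 tested Cyp2j genes of -0.67 to 0.15.

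In family 4 outside the cluster, the Cyp4f genes, which inactivate leukotrienes, split evenly. Of the 8 tested genes of the Cyp4f cluster on chromosome 17, 4 had a positive log2 fold change and 4 a negative one. Cyp4f15 had 82.0, 107 and 80.0 normalized counts in het and 22.8, 28.9 and 66.6 in KO, with every KO library lower (log2 fold change -1.31, SE 0.48, adjusted p 0.566). Cyp4f16, the most abundant of them, had 1435, 1313 and 1232 in het and 1073, 1670 and 1885 in KO (log2 fold change 0.18, adjusted p 0.941). Cyp4v3, the mouse counterpart of a human gene of corneal and retinal disease, had 313, 274 and 247 in het and 202, 187 and 175 in KO. Its groups did not overlap, and its unadjusted p missed 0.05 (log2 fold change -0.56, SE 0.27, adjusted p 0.776).

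Among the 6 genes of oxysterol and bile acid metabolism, limma and edgeR called none of the 5 tested, with 1 higher and 1 lower at an unadjusted p under 0.05 by either tool, and DESeq2 called Cyp7b1 higher. Cyp7b1, which hydroxylates oxysterols, had 125, 105 and 126 normalized counts in het and 526, 154 and 421 in KO (log2 fold change 1.45 by limma, SE 0.44, adjusted p 0.355). The KO libraries were all higher, with replicate 2 close to het. Without KO replicate 2 the log2 fold change was 1.98 and the adjusted p 0.0444. Cyp46a1, the cholesterol hydroxylase known from neurons, had 3148, 2979 and 2598 in het and 2301, 1861 and 1564 in KO (log2 fold change -0.62, SE 0.22, adjusted p 0.531). The ratio of the means was 0.656 with no overlap, a small difference at a high level. Cyp39a1, Cyp27a1 and Cyp7a1 had log2 fold changes of 0.13, -0.33 and 0.20 with overlapping groups, and Cyp8b1 was under the filter.

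Of the 4 steroid-synthesis genes, Cyp21a1 and Cyp11b1 were highest in het replicate 3. Cyp21a1, the steroid hydroxylase of the adrenal cortex, had 13.4, 23.2 and 218 normalized counts in het and 3.96, 4.13 and 0 in KO (log2 fold change -3.85 by limma, SE 1.15, adjusted p 0.348). DESeq2 called it lower (adjusted p 0.000883). Without het replicate 3 the limma log2 fold change was -2.66 and the adjusted p 0.733. It shares 23.8% of its 50-base words with other genes, most of them with the pseudogene Cyp21a2-ps. Cyp11b1, which completes corticosteroid synthesis, had 19.1, 10.6 and 345 in het and 17.8, 55.8 and 18.6 in KO. Both genes were highest in the library with the high Leydig cell markers, where the Leydig marker Cyp11a1 had 10074 normalized counts against 136 to 332 in the other 5 libraries. The part of those cells in the 2 values was not tested. Cyp19a1, the aromatase that makes estrogens, had its highest value in a KO library, with 441, 459 and 561 in het and 359, 371 and 752 in KO (log2 fold change -0.06, adjusted p 0.989). Cyp11b2, the aldosterone synthase, was under the filter, with 7.63, 4.83 and 6.83 in het and 13.9, 7.23 and 0 in KO.

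Genes of retinoic acid breakdown gave no call with limma, edgeR or DESeq2, and none of the 3 had an unadjusted p under 0.05. Cyp26b1, the enzyme known for protecting fetal male germ cells from retinoic acid, had 188, 179 and 354 normalized counts in het and 302, 248 and 154 in KO (log2 fold change -0.02, SE 0.37). Cyp26a1 had a log2 fold change of 0.30 (SE 0.34) and Cyp26c1 of -0.24 (SE 0.70), so differences of this size were within the spread between libraries. The classical targets of the aryl hydrocarbon receptor, Cyp1a1, Cyp1a2 and Cyp1b1, had log2 fold changes of 0.35, 0.28 and 0.55, with overlapping groups and no call by the 3 tools. For vitamin D, the activating enzymes Cyp2r1 and Cyp27b1 had log2 fold changes of 0.77 and -0.49, and the degrading enzyme Cyp24a1 of -0.23. None was called by the 3 tools (unadjusted p under 0.05: 0 with limma and edgeR, 1 with DESeq2). Cyp2r1 came nearest to the unadjusted threshold, with 91.5, 73.4 and 106 normalized counts in het and 180.1, 199 and 99.9 in KO.

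Levels can be compared between genes only per length. Per kb of exon, averaged over the 6 libraries, the highest P450 genes were Cyp46a1 at 733, Cyp20a1 at 518, Cyp4f16 at 467, Cyp39a1 at 437 and Cyp2c55 at 349 normalized counts per kb. Of these 5, Cyp20a1 alone was called. The other called genes sat far lower, with Cyp4a12b at 47.2 and Cyp2c29 at 18.4, ranks 30 and 48 of 88. Summed over all 88 genes, the het libraries held 16099, 15215 and 14009 normalized counts and the KO libraries 16127, 14535 and 21133. Those ranges overlapped, so the total over P450 genes did not separate the genotypes.

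**Figure D3:**
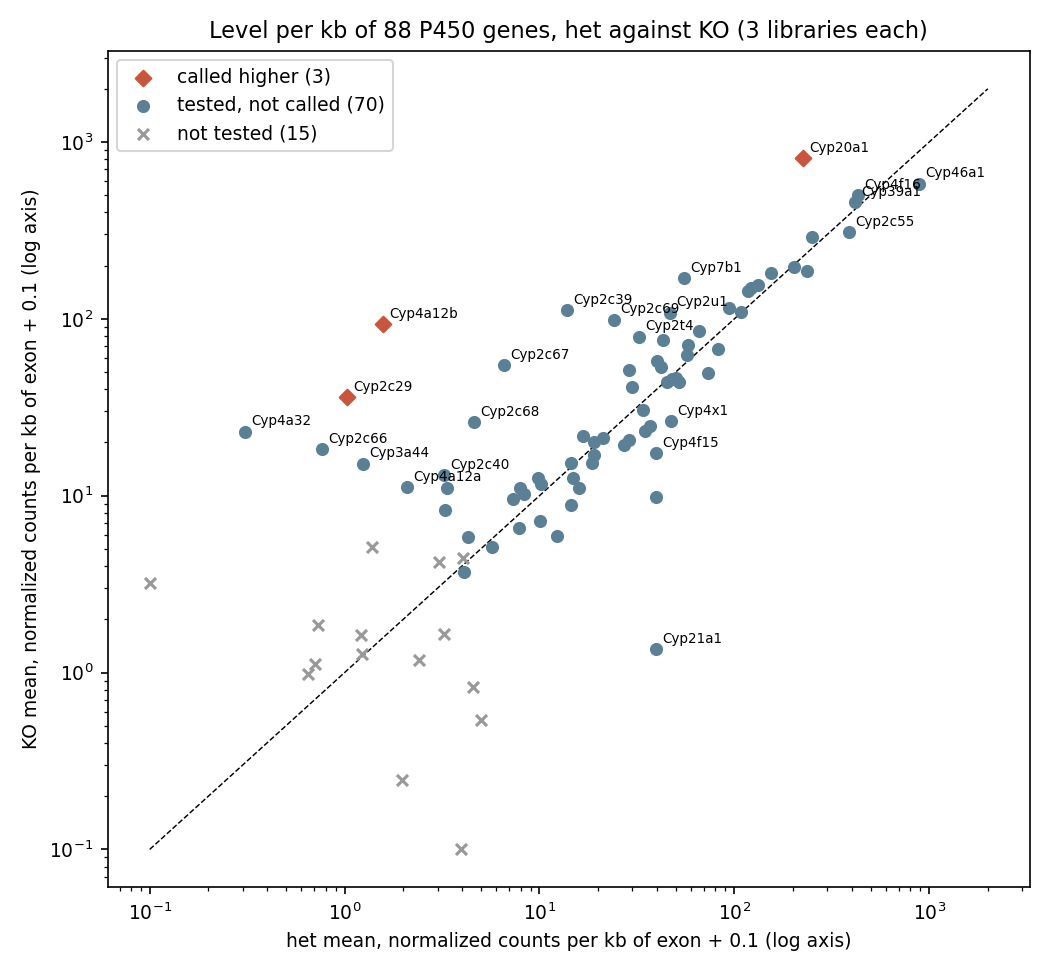
Mean level per kb of exon in KO against het for the 88 P450 genes (normalized counts per kb + 0.1, both axes logarithmic, 3 libraries per group); the dashed line marks equal levels and the named genes are those with an unadjusted p under 0.05 and the 5 highest. Cyp20a1 rises from 226 to 811 among the abundant genes, while Cyp4a12b and Cyp2c29 start near 1 per kb.

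The partners of the P450 enzymes and the receptors that control their genes gave no call. Of 9 electron donors and heme genes, all tested, limma, edgeR and DESeq2 called 0, and none had an unadjusted p under 0.05 with any of the tools. The median log2 fold change was -0.23. Por, the oxidoreductase that feeds electrons to most P450 enzymes, had 5751, 5527 and 3781 normalized counts in het and 4502, 3546 and 2919 in KO (log2 fold change -0.46, SE 0.24, adjusted p 0.813). Of 33 receptors and transcription factors, 31 were tested and 0 called by limma, edgeR or DESeq2. At an unadjusted p under 0.05, 2 of them were lower with each tool: Ppara, the fatty acid receptor that drives Cyp4a genes in liver, and Nr1h4, the bile acid receptor FXR. Ppara had 420, 329 and 362 normalized counts in het and 208, 111 and 236 in KO (log2 fold change -1.06 by limma, SE 0.33, adjusted p 0.407). Nr1h4 had 163, 186 and 202 in het and 150.4, 44.4 and 114 in KO (log2 fold change -0.99, adjusted p 0.723). Nr1i3, the xenobiotic receptor CAR, was at most 5.80 in any library. The epoxide hydrolases Ephx1 and Ephx2, which act on P450 products, had log2 fold changes of -0.68 and -0.57 and were not called by the 3 tools (unadjusted p under 0.05: 0 with limma and edgeR, 1 with DESeq2).

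Markers of the cells in which P450 genes are best known were read beside these values. Of 12 hepatocyte markers, 11 were tested and limma, edgeR and DESeq2 called 0 (unadjusted p under 0.05: 1 with each, Trf, lower). Their sum was 11608 to 12817 normalized counts in het and 9177 to 13705 in KO, most of it from Afp. Alb had 82.0, 75.3 and 102 in het and 61.3, 10.3 and 103 in KO, and Serpina1a was at most 7.92 in any library. Both encode secreted liver proteins, and for both the genotypes overlapped. Of 7 Sertoli cell markers, 7 had negative log2 fold changes and 4 an unadjusted p under 0.05, with sums of 17637 to 36320 in het and 12677 to 17982 in KO. Limma and edgeR called none of them and DESeq2 called Clu lower. The part of Sertoli cell RNA in the P450 values was not tested. Sums of the 4 blood markers were 349 to 856 in het and 353 to 1159 in KO, those of the 2 endothelial markers 1223 to 1594 and 963 to 1753, and those of the 5 adrenal cortex markers 132 to 827 and 188 to 231. The adrenal list holds Cyp11b1 and Cyp21a1 themselves.

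The second deposited table gives counts for single TE copies, the repeated sequences that MORC1 is known to silence. Within 10 kb of the 88 P450 genes it lists 498 copies, of which 82 had a mean of at least 10 and were tested. Of these, 7 rose in KO, or 8.54%, where 15.6% of all 49781 tested copies rose, and 0 fell with limma (0.735% of all copies; unadjusted p under 0.05: 4 lower and 18 higher). P450 genes as a whole thus had no larger share of called copies nearby than the table at large. Near the 15 genes that were higher at an unadjusted p under 0.05, 5 of 20 tested copies were called, and near the other 73 genes 2 of 63. Every KO library lay above every het library for 14 of the 20 and 6 of the 63 (22.8% of all copies). These counts are descriptions, since the 15 genes were set apart by the same libraries.

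**Figure D4:**
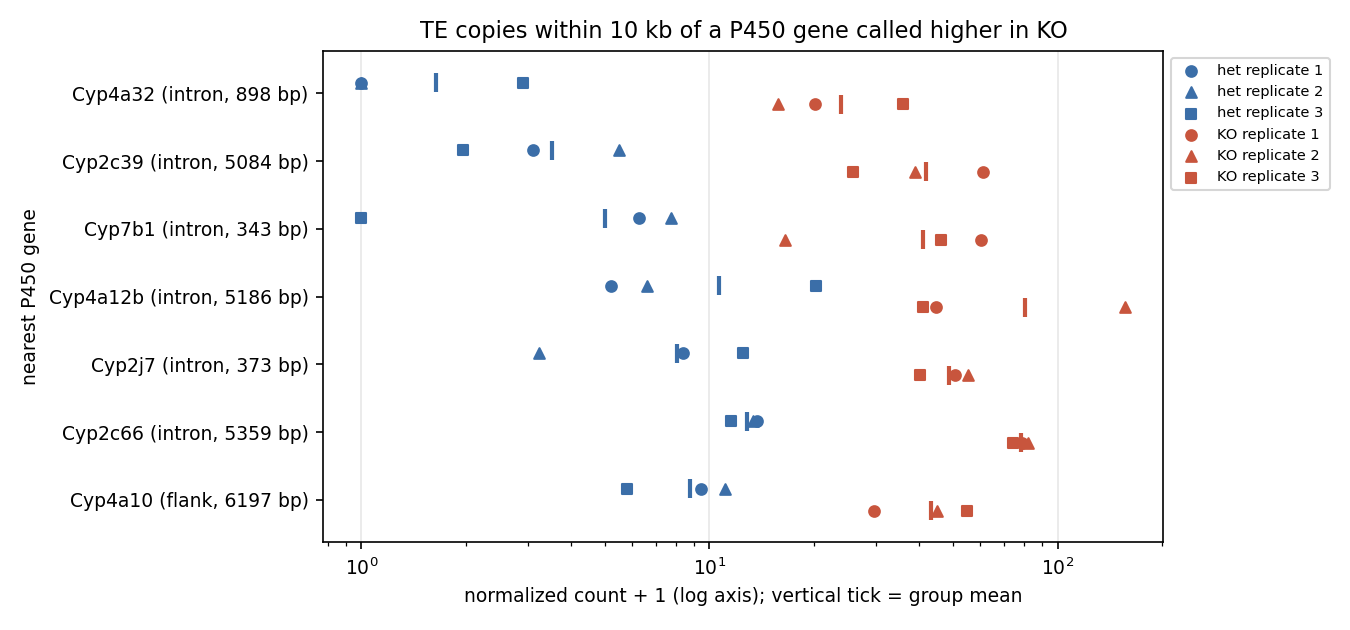
Normalized count + 1 on a log axis in each of the 6 libraries for the 7 TE copies within 10 kb of a P450 gene that were called higher, named by the nearest P450 gene with position and length; each vertical tick is a group mean (n = 3). The 3 KO libraries lie above the 3 het libraries in all 7, and the copy in Cyp2c66 has the narrowest spread.

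Of the 7 called copies, 6 lay in introns and none in an exon. The copy in Cyp2c66 is 5359 bp long, on the strand of the gene and 42892 bp from the nearest annotated start. It had 12.7, 12.3 and 10.5 normalized counts in het and 78.2, 81.3 and 73.6 in KO (log2 fold change 2.62, SE 0.44, adjusted p 0.00218). Its lowest KO value was in replicate 3, where Cyp2c66 itself was highest. The copy in Cyp4a12b is 5186 bp long, also on the strand of the gene and 13504 bp from its start. It had 4.22, 5.61 and 19.2 in het and 43.9, 156 and 40.2 in KO (log2 fold change 2.90, SE 0.70, adjusted p 0.0144), and both it and Cyp4a12b itself were highest in KO replicate 2. The copy in Cyp2c39, 5084 bp on the opposite strand, had 2.11, 4.49 and 0.96 in het and 60.1, 37.9 and 24.8 in KO (log2 fold change 3.61, SE 0.74, adjusted p 0.00610). Both it and Cyp2c39 were highest in KO replicate 1. The lowest KO value was in replicate 3 for the copy and in replicate 2 for the gene.

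The others were shorter or outside the gene. In Cyp4a32 a copy of 898 bp lay on the opposite strand, 4026 bp from the nearest annotated start. It had 0, 0 and 1.92 normalized counts in het and 19.1, 14.7 and 35.1 in KO (log2 fold change 3.98, SE 1.07, adjusted p 0.0247). Its lowest KO value was in replicate 2, where Cyp4a32 itself was highest. In Cyp7b1 a copy of 343 bp on the gene strand had a log2 fold change of 3.30 (adjusted p 0.0297), with its lowest KO value in replicate 2, as for Cyp7b1. In Cyp2j7 a copy of 373 bp had a log2 fold change of 2.79 (adjusted p 0.0106), while Cyp2j7 itself had -0.67 (adjusted p 0.893). That copy was lowest in KO replicate 3, where Cyp2j7 was highest among KO libraries. Beside Cyp4a10 a copy of 6197 bp on the opposite strand had 2.31 (adjusted p 0.0166), while Cyp4a10 had 0.05. That copy was highest in KO replicate 3, where Cyp4a10 was lowest. A called copy thus stood beside genes that were higher in KO and beside genes that were not. Within 50 kb of the P450 genes 187 copies were tested and 21 called higher, or 11.2%, against 15.6% of all tested copies. The copies listed within Cyp2c29 were all under the filter. The gene and TE tables were scaled apart, and how reads that fit both a copy and a gene were assigned is not given in the sources used here.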

How the data were processed

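RNA-seq libraries were made from testis gonocytes with the SMART-seq cDNA kit for small inputs and a TruSeq kit, per the labels' protocols. The submitters' processing notes name bcl2fastq 2.20, cutadapt 1.18, HISAT2 2.1.0, featureCounts 1.5.2, DESeq2 1.26.0 and the builds mm10 and GRCm38, with no role for each. Strand setting, the handling of reads that fit several places and the TE annotation are not given in the sources used here.

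Both deposited tables hold a signal: read counts that the authors divided by DESeq2 size factors, as the gene file is named. In each of the 6 columns of the gene file and of the TE file, 100% of the values were whole multiples of 1 step within a tolerance of 0.001, so that reads could be recovered. Per library there were 28363683 to 32816861 reads over genes and 1974504 to 3703419 over TE copies. Replicates differed by more than counting noise (mean chi-square per gene 11.1 to 107 over the pairs). Intervals and floors cover counting error only, since the reads carry no molecular identifiers.

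The tables were fitted whole and apart from each other with limma 3.58.1 in R 4.3.3 (two-sided, with eBayes trend) of log2(normalized count + 1), over features with a mean of at least 10, with Benjamini-Hochberg adjustment and a threshold of 0.05. Fold changes are on that log2 scale, which understates the change of low genes. On recovered reads, edgeR 4.0.16 (quasi-likelihood) called 121 genes higher and 8 lower, and DESeq2 1.42.0 called 400 and 65. The fits were tested on simulated data, with changes set only in features with a mean of at least 50. That test did not cover genes of lower mean such as Cyp4a32 and Cyp2c66.

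Of the 35666 gene identifiers, 35560 matched GENCODE M21 (GRCm38), which gave symbols, positions and exon lengths. TE positions were read as GRCm38. Promoter windows are from RefSeq (GRCm38.p6). Genes were named where they passed the adjusted or unadjusted threshold, lay in a cluster with a called gene, were among the 5 highest per kb or had a set role. TE copies were named where called within 10 kb of a P450 gene. The members, lists and naming rule were chosen with earlier results of these data known.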

Additional observations from a re-analysis of the deposited data

How the results depend on the processing

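For the P450 genes the limma fit gave 3 higher and 0 lower. The number higher was 8 with DESeq2 (Cyp20a1, Cyp4a12b, Cyp4a32, Cyp7b1, Cyp2c39, Cyp2c66, Cyp2c67 and Cyp2c69), with Cyp21a1 as 1 lower, and 1 with a pseudocount of 0.1 (Cyp20a1). Without 1 library at a time it ranged from 0 (without KO replicate 3) to 3, with Cyp20a1 alone left without KO replicate 1, and the number lower stayed at 0. Over all genes, where the fit gave 112 higher and 11 lower, the number higher was 400 with DESeq2, 70 with a pseudocount of 0.1 and 177 with a pseudocount of 10, and it ranged from 15 to 107 without 1 library. The number lower was 65 with DESeq2, 3 without the trend and 5 with a pseudocount of 0.1, and it ranged from 1 to 7 without 1 library. Of the TE copies near P450 genes, 7 were called higher. The number was 11 with the gene size factors, 12 with a pseudocount of 10, 0 with a mean of at least 50 and 21 within 50 kb, and it ranged from 4 to 12 without 1 library. The number lower, 0 in the fit, was 1 without the trend and 1 with a mean of at least 50. The cause of these shifts was not tested. The stricter filter left fewer features to test, and the fits without 1 library tested the same features with fewer replicates. None of the 19 P450 genes with an unadjusted p under 0.05 and none of the 7 called copies changed direction under the alternatives run. Of 297 values for those genes, 267 kept their side of the threshold, 18 lost the call and 12 gained it. Of 77 values for those copies, 64 kept it and 13 lost it.

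Deviations of same-numbered het and KO replicates from their group means had correlations of 0.14, -0.16 and -0.04. With 3 replicates per group these cannot show whether same-numbered samples were paired, and the labels do not say. With the replicate number as a block, limma called 64 genes higher and 5 lower, with Cyp20a1 and Cyp4a12b among them, and edgeR called 38 higher and 0 lower, of which 1 was a P450 gene (Cyp4a12b).

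Depth limits the low genes most: Cyp4a12b, Cyp2c29, Cyp2c66 and Cyp4a32 rest on a few het reads, so their fold changes depend on the pseudocount (2.06 to 7.21 for Cyp4a32), and genes under the filter could not be tested.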

Other observations

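P450 pseudogenes, disabled copies that lie among the working genes, were not part of the gene set and give values of their own. Of 30 annotated in GENCODE M21, 15 were listed and 5 tested. Limma and edgeR called none at an adjusted p under 0.05, and DESeq2 called Cyp4a30-ps higher. At an unadjusted p under 0.05, 3 of the 5 were higher in KO with limma and 0 lower (4.42% and 2.44% of all genes tested). These 3, Cyp4a30-ps, Cyp4b1-ps2 and Cyp2j14-ps, had het means under the filter and entered the test only through KO. Their count is therefore a description. Cyp2c52-ps and Cyp4f41-ps, the others tested, had log2 fold changes of -0.68 and -0.23. Over the 15 listed, 6 had every KO library above every het library and 0 had every KO library below (7.17% and 5.57% of all genes tested, a set without the low genes that the 15 include).

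Those with the clearest values lie within the clusters described above. Cyp4a30-ps, between Cyp4a12a and Cyp4a12b, had 0, 0 and 5.85 normalized counts in het and 33.6, 34.1 and 103 in KO (log2 fold change 4.72 by limma, SE 1.01, adjusted p 0.107). A pair of TE copies called higher overlap it. Cyp2c53-ps, beside Cyp2c29, was listed at 0 in all het libraries and had 14.8, 25.8 and 11.8 in KO. Its mean was under the filter, so it was not tested. Cyp4b1-ps2 had 0, 1.93 and 13.7 in het and 42.5, 25.8 and 23.5 in KO (log2 fold change 3.13, SE 1.04, adjusted p 0.462). These pseudogenes were picked for mention after their values were seen.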
